A study of Mus musculus with 6 samples.

Results

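The mRNAs of 7 immediate early response genes, Egr1, Atf3, Dusp1, Btg2, Ier2, Ier3 and Ier5, were followed between RNA recovered with an antibody against hnRNPK and the total RNA of the same kind of lysate. They were taken by name, through the Ensembl gene identifiers of the deposited tables, and they are 7 of the 53379 genes listed and of the 16929 genes tested. All 7 passed the filter on low counts. The cells were Min6, a mouse insulinoma line that serves as a model of the pancreatic beta cell. Every library came from cells at passage 31 kept for 30 h in 500 µM palmitic acid and 25 mM glucose, a condition the labels name glucolipotoxicity, so no library shows these genes in untreated cells. The hnRNPK IP group had 3 libraries, made from RNA eluted after lysate with 200 µg of protein had been incubated overnight with the antibody. The Total RNA group had 3 libraries, made from a 10% input of lysate. No IP with another antibody was analysed here, and RNA held by the beads alone is counted with RNA held by hnRNPK. Whether the 3 libraries of a group were separate cultures is not stated in the labels, and p-values then rest on a spread between libraries that may be technical.

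Immediate early genes are transcribed within minutes of a stimulus, from promoters read by factors already present in the cell, without new protein synthesis. Their mRNAs and proteins are mostly short-lived, and AU-rich elements in the 3′ untranslated region (3′ UTR) mark many of the mRNAs for rapid deadenylation and decay. In beta cells they respond to glucose, calcium and cyclic AMP. hnRNPK is an RNA-binding protein of nucleus and cytoplasm whose KH domains hold short C-rich stretches of single-stranded RNA. An enrichment in the IP is a share of the recovered RNA relative to a share of total RNA, and it gives neither the amount of an mRNA in the cell nor the number of hnRNPK molecules on it.

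The 7 mRNAs parted in the IP: Egr1 and Dusp1 were higher than in total RNA, and Atf3, Ier5, Ier2 and Ier3 were lower. Btg2 lay slightly lower, at the edge of the threshold. With the edgeR quasi-likelihood test and Benjamini-Hochberg adjustment over all tested genes, 2 of the 7 were called higher and 5 lower at an adjusted p under 0.05. Calls were common, since 62.4% of all tested genes were called, 28.9% higher and 33.6% lower, so that a call alone does not set a gene apart. The 3 IP values and the 3 total RNA values of normalised CPM (counts scaled to a common library size) did not overlap for any of the 7, with 2 above and 5 below, as was so for 71.4% of all tested genes, 32.2% above and 39.3% below. The median log2 fold change, hnRNPK IP minus total RNA, was -0.98 over the 7 and -0.07 over all tested genes, whose quartiles were -1.20 and 0.96. The 7 values ran from 2.64 to -2.75, a full range whose width cannot be compared with that of quartiles.

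**Figure D1:**
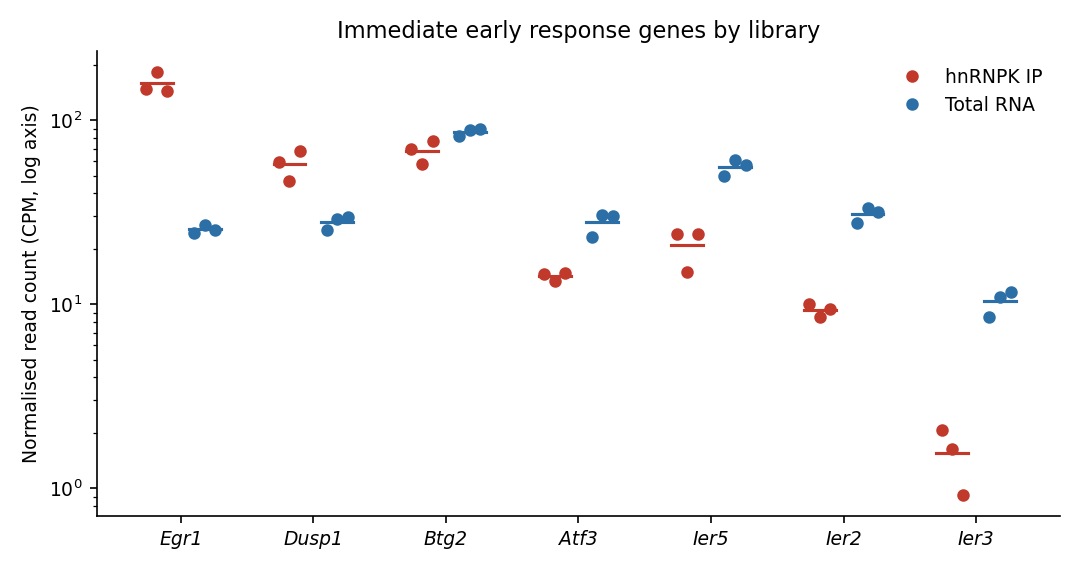
Normalised level of each of the 7 mRNAs (CPM with TMM factors, log axis) in the 3 hnRNPK IP libraries and the 3 total RNA libraries, 1 point per library with a line at each mean. The IP points lie above the total RNA points for Egr1 and Dusp1 and below them for the 5 others, and they lie closest together for Btg2.

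C-rich and AU-rich stretches of the 3′ UTRs are shown first, because the antibody is against a protein that binds C-rich RNA and because AU-rich elements are a hallmark of this gene class. For 6 of the mRNAs, the 30 bases of the 3′ UTR with the most C are given, read 5′ to 3′ on the mRNA's strand from GENCODE M21 transcripts on GRCm38, with T for U. Capitals mark every CCCC.
Atf3, chr1:191171412-191171441, minus strand: tcctccttttccaCCCCacaccctgaagcc
Dusp1, chr17:26506140-26506169, minus strand: ttaacaCCCCCCtcaCCCCCCaactcctcc
Btg2, chr1:134076276-134076305, minus strand: gaccggacctcccagCCCCtcctgatgccc
Ier2, chr8:84661625-84661654, minus strand: gacttgagtcacctcgCCCCCacaggctgc
Ier3, chr17:35822407-35822436, plus strand: actcagaacactaccgccaagagacaccgc
Ier5, chr1:155098433-155098462, minus strand: CCCCgaagtgcggccggggcctctcccggc
The Dusp1 window holds 19 C, in which 2 runs of C are parted by 3 bases. The windows of Btg2 and Atf3 hold 16 C each, that of Ier5 14, that of Ier2 13 and that of Ier3 12, with 17 as the most in 30 bases of the 3′ UTR of Egr1, whose sequence is not shown, against a median of 15 over the 12532 tested coding genes with a 3′ UTR of at least 100 bases. Ier3, the mRNA furthest below total RNA, has no CCCC in its whole 3′ UTR. Among the 721 tested 3′ UTRs within 10% of its length, 79.3% have one. The coding sequence of Ier3 has 4, or 8.28 per kb against a median of 4.09. Egr1, the mRNA furthest above total RNA, has 1.64 CCCC per kb of 3′ UTR, below the median of 3.35. Whether the motif bears on recovery in the IP was not tested.

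AU-rich stretches were found in mRNAs on both sides of the comparison, as the 2 mRNAs with the most ATTTA per kb of 3′ UTR show. The 30 bases with the most ATTTA follow, with that motif in capitals.
Dusp1, chr17:26506164-26506193, minus strand: tcatgggagctggtccttATTTATTTAaca
Ier3, chr17:35822483-35822512, plus strand: tctaattaatATTTAtgtATTTAtgtatat
In Dusp1 this stretch ends where the C-rich window shown above begins, and they share 6 bases. Ier3 has 5 copies of ATTTA in its 3′ UTR, or 8.16 per kb, and Dusp1 has 4, or 5.80 per kb, against a median of 1.32 per kb. Btg2 also has 5 copies, in a longer 3′ UTR, or 2.27 per kb. The longer form TATTTAT, which overlaps ATTTA, occurs 4 times in the 3′ UTR of Ier3 and 3 times in that of Dusp1. It occurs in 18.6% of the 3′ UTRs of like length for Ier3 and in 19.4% of those for Dusp1. Dusp1 was higher in the IP and Ier3 was lower.

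Egr1 encodes a zinc finger transcription factor induced by many growth and depolarising stimuli, glucose among them. Its gene (ENSMUSG00000038418.7) lies at chr18:34859823-34864984 on the plus strand of GRCm38, with 2 exons and 4484 exonic bases. Egr1 had 148, 183 and 144 CPM in the IP libraries, against 24.3, 26.8 and 25.3 CPM in the total RNA libraries. Even the lowest IP library stood far above every total RNA library. These values rest on 5020, 6017 and 5780 counts in the IP and on 1513, 1446 and 1343 counts in total RNA. The means were 158 ± 21.0 CPM in the IP and 25.5 ± 1.27 CPM in total RNA (SD, n = 3 each). The log2 fold change was 2.64 ± 0.12 (SE), or 6.21-fold higher in the IP, with an edgeR adjusted p of 2.03e-06. Only 283 of the 16929 tested genes had a higher log2 fold change than Egr1. Under the 14 other ways of processing the value ran from 2.20 to 2.71.

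Atf3 encodes a stress-induced bZIP factor that acts mostly as a repressor and that in beta cells is raised by cytokines, fatty acids and the integrated stress response. The gene (ENSMUSG00000026628.13) spans chr1:191170296-191218039 on the minus strand, with 2154 exonic bases. Atf3 had 14.6, 13.3 and 14.8 CPM in the IP libraries, against 23.2, 30.5 and 30.3 CPM in the total RNA libraries. The IP libraries were close to one another, and total RNA library 1 lay nearest to them without overlap. Counts behind these values were 495, 437 and 594 in the IP and 1445, 1643 and 1610 in total RNA. Atf3 averaged 14.2 ± 0.851 CPM in the IP and 28.0 ± 4.15 CPM in total RNA, a log2 fold change of -0.98 ± 0.15 (edgeR adjusted p 0.000716). So the 2 transcription factors of the group went opposite ways: the ratio of Egr1 to Atf3 within a library was 12.1-fold higher in the IP.

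Dusp1 encodes a nuclear dual-specificity phosphatase that dephosphorylates MAP kinases, chiefly p38 and JNK, and so ends the signal that induced it. The gene (ENSMUSG00000024190.6 in the tables, with a later version of the model in GENCODE M21) spans chr17:26505590-26562128 on the minus strand, with 3311 exonic bases, although its coding transcript has 1990 bases in 4 exons. Dusp1 had 59.1, 46.9 and 68.4 CPM in the IP libraries, against 25.4, 29.2 and 29.6 CPM in the total RNA libraries. Total RNA was tight, while the highest IP library stood well above the lowest. The counts were 2002, 1546 and 2741 in the IP and 1580, 1573 and 1571 in total RNA. Dusp1 averaged 58.1 ± 10.8 CPM in the IP and 28.1 ± 2.32 CPM in total RNA, with a log2 fold change of 1.05 ± 0.15 (edgeR adjusted p 0.0005). It was 2.07-fold higher, and 77.0% of tested genes had a lower log2 fold change. Its annotated exons share 11 bases with Ergic1 on the other strand, and with the strand setting of the counting unknown, reads there cannot be told apart. Ergic1 had 27106, 34635 and 27623 counts in the IP and 14446, 11548 and 11690 in total RNA. The part of reads from Ergic1 in the value of Dusp1 was not tested.

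Btg2 encodes an antiproliferative protein that binds the CCR4-NOT deadenylase. Its gene (ENSMUSG00000020423.6) lies at chr1:134075170-134079120 on the minus strand, with 2 exons and 2743 exonic bases. Btg2 had 69.5, 57.8 and 77.4 CPM in the IP libraries, against 82.0, 88.1 and 89.6 CPM in the total RNA libraries. The groups did not overlap, but the highest IP library came close to the lowest total RNA library. Counts were 2353, 1906 and 3104 in the IP and 5106, 4747 and 4757 in total RNA. The means were 68.2 ± 9.87 CPM in the IP and 86.6 ± 4.00 CPM in total RNA, which made Btg2 1.27-fold lower (log2 fold change -0.34 ± 0.12, edgeR adjusted p 0.0389). That call was lost in 10 of 14 alternatives. Without IP library 1, 2 or 3, the log2 fold change was -0.38, -0.23 or -0.50 (edgeR adjusted p 0.113, 0.0745 and 0.0122), and without total RNA library 1, 2 or 3 it was -0.34, -0.29 or -0.28 (edgeR adjusted p 0.0821, 0.156 and 0.169).

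Ier2, Ier5 and Ier3 share a name from their rapid induction. Ier2 and Ier5 are related by sequence and have been described as nuclear regulators of transcription, Ier5 as a partner of the heat shock factor Hsf1, whereas Ier3 is a small unrelated protein linked to survival signalling and to the ERK pathway. All 3 were lower in the IP.

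The gene of Ier2 (ENSMUSG00000053560.4, chr8:84661331-84662852, minus strand) is a single exon of 1522 bases. Ier2 had 9.98, 8.49 and 9.45 CPM in the IP libraries, against 27.5, 33.3 and 31.5 CPM in the total RNA libraries. Both sets were narrow and far apart. Its counts were 338, 280 and 379 in the IP and 1712, 1794 and 1674 in total RNA. Ier2 averaged 9.31 ± 0.756 CPM in the IP and 30.8 ± 2.97 CPM in total RNA, 3.30-fold lower (log2 fold change -1.72 ± 0.14, edgeR adjusted p 2.26e-05).

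Ier5 (ENSMUSG00000056708.5, chr1:155096361-155099636, minus strand) is likewise a single exon, of 3276 bases. Ier5 had 24.1, 14.9 and 24.0 CPM in the IP libraries, against 49.8, 60.6 and 56.8 CPM in the total RNA libraries. IP library 2 lay apart from the other two, and all 3 were below total RNA. These rest on 815, 492 and 963 counts in the IP and on 3100, 3266 and 3016 counts in total RNA. Ier5 averaged 21.0 ± 5.27 CPM in the IP and 55.7 ± 5.48 CPM in total RNA, 2.65-fold lower (log2 fold change -1.41 ± 0.20, edgeR adjusted p 0.000377).

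Ier3 (ENSMUSG00000003541.6, chr17:35821684-35822923, plus strand) has 2 exons and 1131 exonic bases, the shortest of the 7. Ier3 had 2.07, 1.64 and 0.923 CPM in the IP libraries, against 8.48, 10.9 and 11.7 CPM in the total RNA libraries. The IP values rest on 70, 54 and 37 counts, with exact Poisson 95% intervals of 54.6 to 88.4, 40.6 to 70.5 and 26.1 to 51.0 that cover counting error only. Total RNA held 528, 589 and 621 counts. Ier3 was the least abundant of the 7 in every IP library, and its spread there was the widest in relative terms, with a coefficient of variation of 37.5%. It averaged 1.54 ± 0.578 CPM in the IP and 10.4 ± 1.68 CPM in total RNA, 6.74-fold lower (log2 fold change -2.75 ± 0.33, edgeR adjusted p 0.000171).

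**Figure D2:**
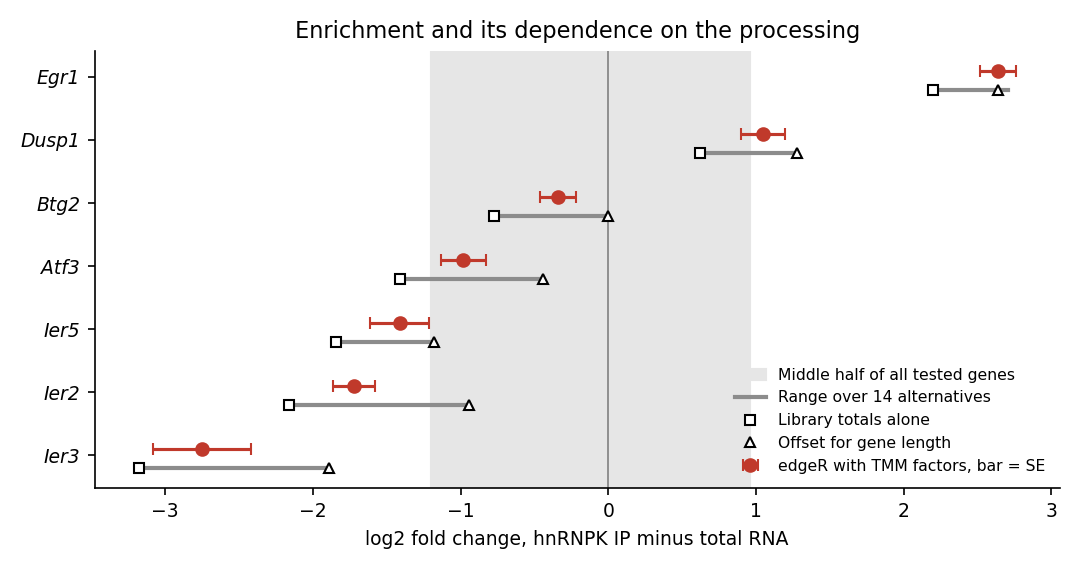
Log2 fold change of each mRNA, hnRNPK IP minus total RNA, in red with its SE from edgeR with TMM factors, over a grey line for the range of the 14 alternatives with a square for library totals alone and a triangle for the length offset; the shaded band holds the tested genes between the quartiles of -1.20 and 0.96. The ranges of Egr1 and Dusp1 stay above 0 and those of Atf3, Ier5, Ier2 and Ier3 below it, while that of Btg2 runs from -0.77 to just under 0.

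Libraries moved together in part. Total RNA library 1 had the lowest CPM of its group for all 7 mRNAs. IP library 2 had the lowest CPM of its group for 5 of them (Ier2, Ier5, Btg2, Dusp1 and Atf3) and the highest for Egr1. Over all genes, the biological coefficient of variation was 42.6% for IP libraries and 12.1% for total RNA libraries. Totals were 39290750, 38764925 and 46222181 counts in the IP and 52735957, 46657732 and 46185284 in total RNA, and fewer genes had a count in the IP, 17471 to 21306 against 21805 to 22625.

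Within the group, the makeup of the reads differed more than their sum. Summed over the 7, the level was 331 ± 7.0 CPM in the IP and 265 ± 20.9 CPM in total RNA (SD, n = 3 each). That direction holds with TMM factors but not on library totals, and no other scaling was computed for the sum. As a share of library totals the 7 genes held 0.0282%, 0.0277% and 0.0294% of counts in the IP libraries, against 0.0284%, 0.0323% and 0.0316% in the total RNA libraries, with overlap. Egr1 held 48.0 ± 7.18% of the reads of the 7 genes in the IP and 9.63 ± 0.451% in total RNA. Dusp1 held 17.5 ± 2.93% in the IP and 10.6 ± 0.208% in total RNA. Btg2 held 20.6 ± 2.55% in the IP and 32.7 ± 1.31% in total RNA, and Ier5 held 6.34 ± 1.53% in the IP and 21.0 ± 0.577% in total RNA. Ier2, Atf3 and Ier3 together gave the rest, each with a smaller share in the IP than in total RNA.

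Per kb of annotated exon, the order of the levels differed between the groups. In the IP, Egr1 led with 35.3 ± 4.69 CPM per kb, followed by Btg2 with 24.9 ± 3.60 and Dusp1 with 17.6 ± 3.25. Next came Atf3 with 6.61 ± 0.395, Ier5 with 6.41 ± 1.61 and Ier2 with 6.12 ± 0.496 CPM per kb, whose ranges overlap, and last Ier3 with 1.36 ± 0.511. In total RNA, Btg2 led with 31.6 ± 1.46 CPM per kb, followed by Ier2 with 20.2 ± 1.95 and Ier5 with 17.0 ± 1.67, whose ranges overlap, and by Atf3 with 13.0 ± 1.93. Ier3 with 9.17 ± 1.48 and Dusp1 with 8.47 ± 0.701 CPM per kb overlapped too, and Egr1 was last with 5.68 ± 0.284. Egr1 was thus the lowest of the 7 per kb in total RNA and the highest in the IP. Its 4484 bases include an annotated 5′ UTR of 1666 bases, against a median of 170 over tested coding genes, and a shorter length was not tried. The place of Dusp1 depends on its length: over the 1990 bases of its coding transcript it had 29.2 ± 5.41 CPM per kb in the IP, above Btg2 and with a range that overlaps those of Btg2 and Egr1, and 14.1 ± 1.17 in total RNA. That length was tried after the values had been seen.

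**Figure D3:**
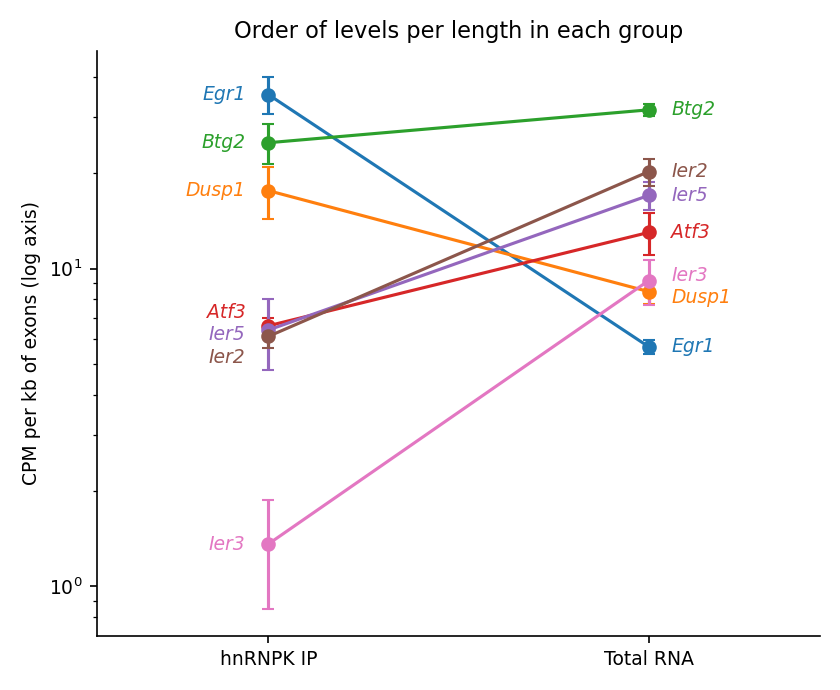
Level per kb of annotated exon (CPM per kb, log axis) of the 7 mRNAs in the hnRNPK IP libraries and in the total RNA libraries, as means with SD bars (n = 3 each), with a line joining the means of each gene. Egr1 is the highest of the IP means, at 35.3, and the lowest of the total RNA means, at 5.68.

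Ratios between pairs of the mRNAs within a library do not depend on how libraries are scaled to each other. For 20 of the 21 pairs, the log2 ratios of the IP libraries and of the total RNA libraries did not overlap, against 65.2% of all pairs of tested genes. The 21 pairs reuse the same 7 genes and are not independent. The exact two-sided permutation test gave its smallest possible p with 3 against 3 libraries, 0.1, for each of these 20 pairs, or 0.105 adjusted over the 21, so the design could not reach 0.05. The widest gap was that of Egr1 to Ier3, with a log2 ratio of 6.74 ± 0.56 in the IP and 1.31 ± 0.20 in total RNA, or 43.1-fold higher in the IP. Among the mRNAs that were higher, the ratio of Egr1 to Dusp1 was 3.01-fold higher in the IP. The exception was the related pair Ier5 and Ier2, with a log2 ratio of 1.14 ± 0.29 in the IP and 0.86 ± 0.01 in total RNA (exact permutation p = 0.4). IP values of that ratio ran from 0.81 to 1.34 and enclosed the total RNA values of 0.85 to 0.86.

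Longer genes tended to have higher fold changes over the whole table, and the 7 genes differ in length. A loess curve of log2 fold change on exonic length passed through -0.86 at the length of Ier3, -0.78 at that of Ier2, -0.54 at that of Atf3, -0.34 at that of Btg2, -0.23 at that of Ier5 and -0.22 at that of Dusp1. With this curve as an offset in the edgeR fit, Egr1 stayed at 2.64 and Dusp1 was at 1.28. Ier3 was then at -1.89, Ier5 at -1.18, Ier2 at -0.94 and Atf3 at -0.44, all still past the edgeR threshold, Atf3 with an adjusted p of 0.0353. Btg2 came to -0.00082, with an edgeR adjusted p of 0.996. The curve and the offset used annotated exonic length, which is 4484 bases for Egr1 and 3311 for Dusp1. An offset at the 1990 bases of the coding transcript of Dusp1 was not fitted.

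**Figure D4:**
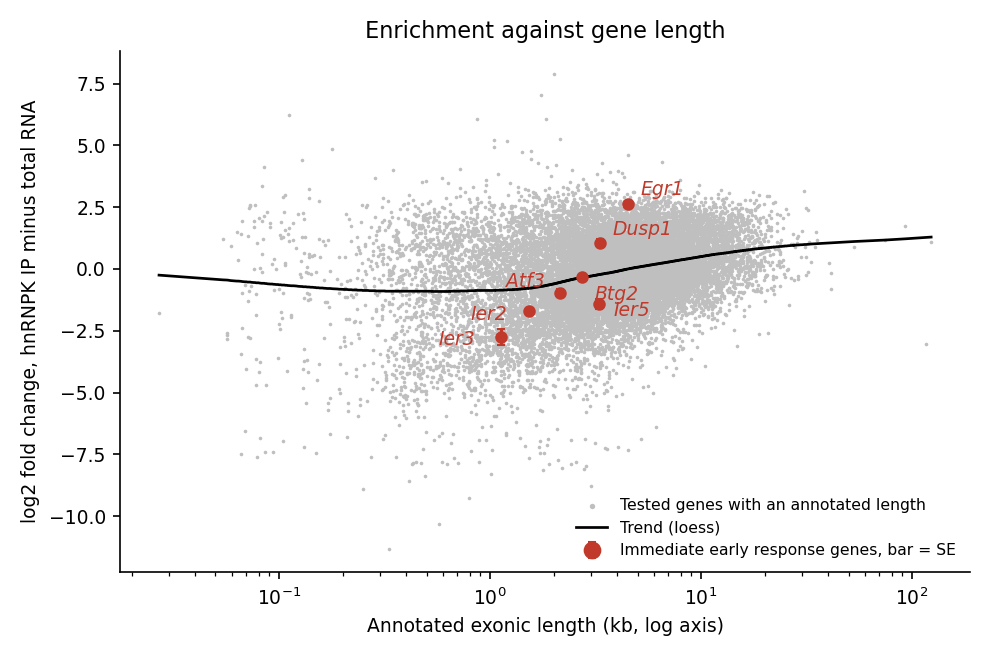
Log2 fold change, hnRNPK IP minus total RNA, against annotated exonic length (kb, log axis) for the tested genes in grey and the 7 immediate early response genes in red with SE bars, with a loess curve in black. Egr1 and Dusp1 lie above the curve, Btg2 lies on it, and Atf3, Ier5, Ier2 and Ier3 lie below it.

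C-rich motifs were counted on the mRNA strand of 1 coding transcript per gene, and the counts are a description. Over the whole transcript, CCCC occurred 9.86 times per kb in Ier2, 9.37 in Egr1, 9.05 in Dusp1, 7.33 in Ier5, 5.47 in Btg2, 5.04 in Atf3 and 3.54 in Ier3, against a median of 4.39 per kb over 13481 tested coding genes. Egr1 had 46 copies of TCCC, a motif that can overlap CCCC, or 10.3 per kb, and the 6 others had 4.27 to 6.05 per kb against a median of 4.54. Of these 46 copies in Egr1, 20 lie in its coding sequence and 5 in its 3′ UTR. Of its 42 copies of CCCC, 17 and 2 lie there. Most of the remaining copies are in its annotated 5′ UTR, which has 1666 bases against a median of 170. In coding sequence all 7 were above the median of 4.09 CCCC per kb, with 16.5 in Ier2 and 15.1 in Ier5. In the 3′ UTR, Dusp1 had 8.70 CCCC per kb, Ier2 5.30, Btg2 5.00, Ier5 4.67 and Atf3 4.22, all above the median of 3.35. Egr1, at 1.64, and Ier3, with no copy, were below it. The 7 mRNAs have few exons, 1 to 4 against a median of 9, and only Egr1 and Ier5 exceeded the median transcript length of 2993 bases.

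Among the 11166 other tested genes of at least 5 CPM, the one whose profile lay nearest was found for each mRNA by the root mean square distance of mean-centred log2 CPM over the 6 libraries. Most neighbourhoods were crowded, and such a profile is mainly the difference between the groups. Nearest to Egr1 was Wasf2, at 0.06, and 298 genes, 2.67%, lay within 0.25. For Dusp1 the nearest was Tmem106c, at 0.03, with 911 genes within 0.25, and for Btg2 it was Cops2, at 0.04, with 1585 genes. For Atf3 it was Man2b1, at 0.07, with 1293 genes, for Ier2 it was Noa1, at 0.04, with 821, and for Ier5 it was Clba1, at 0.04, with 791. Ier3 had the sparsest surroundings, with Eef1akmt1 at 0.13 and 8 genes within 0.25. Its profile rests on only 37 to 70 counts in an IP library, and the part of counting error in its distances was not tested. Among themselves, Ier2 and Ier5 were the closest pair, at 0.22.

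Genes around these 7 are given by list, with counts from the same edgeR fit, and with genes beyond the highest and the lowest of a list named after their values were seen. Over all tested genes 28.9% were called higher and 33.6% lower, so calls in both directions do not set a list apart. The Jun and Fos subunits of AP-1, the other classic immediate early factors, were called in both directions. Their median was positive, while that of the 7 was -0.98. Of the 7 AP-1 mRNAs, 4 were higher (Fosb, Fosl1, Fosl2 and Jund) and 3 lower (Jun, Junb and Fos), from 2.72 ± 0.14 for Fosb to -1.98 ± 0.19 for Junb, with a median of 0.77. The call of Fos, at -0.70 ± 0.15, was lost with the length offset. Of 31 other immediate early genes tested, 15 were higher, 11 lower and 5 did not pass (Klf2, Klf10, Gadd45b, Csrnp1 and Tnfaip3), with a median of 0.34. The highest was Per1, a clock repressor induced by cyclic AMP, at 2.65 ± 0.13. The lowest was Ccn1, a secreted matrix protein, with 2 counts in the IP, both in library 1, against 60 in total RNA, a ratio of 19.0-fold lower with a counting interval of 5.02 to 160. Its call was lost in 5 of the 13 alternatives in which it was tested, among them leaving out any 1 total RNA library. Among the higher calls, that of Sik1, at 0.39 ± 0.13, was kept in 7 of 14 alternatives and that of Klf4, at 0.50 ± 0.15, in 9. Leaving out 1 library gave 13 to 16 higher and 10 to 12 lower. With library totals as the only scaling, 11 of the 31 were higher and 13 lower, with a median of -0.09.

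Of the Egr family and the Nab corepressors, which bind Egr proteins and dampen them, 4 of 5 were tested. Nab2 was higher, at 0.82 ± 0.21, Egr2, at 1.15 ± 1.01, Egr4, at 0.54 ± 0.40, and Nab1, at 0.03 ± 0.12, did not pass, and Egr3 was not tested. Egr2 was scarce, averaging 0.486 ± 0.390 CPM in the IP and 0.219 ± 0.113 CPM in total RNA. Library totals alone ended the call of Nab2 and called Nab1 lower.

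Factors upstream of immediate early promoters were mostly higher in the IP. Of 18 such genes, which are the serum response factor with its Elk and Mrtf partners, the Creb family with its coactivators, and 4 Rps6ka kinases that signal to these factors, 12 were higher, 3 lower (Atf1, Crem and Rps6ka1) and 3 did not pass (Srf, Creb1 and Rps6ka5), with a median of 1.19. Crtc2, a Creb coactivator responsive to glucose and calcium in beta cells, was the highest at 2.67 ± 0.11, and Atf1, a Creb relative, the lowest at -1.37 ± 0.13. Rps6ka1, at -0.86 ± 0.32, lost its call in 7 of 14 alternatives, among them leaving out any 1 total RNA library or IP library 1. Elk4, at 1.09 ± 0.31, lost its call without total RNA library 2 or 3 and with library totals alone. With library totals alone, 10 were higher and 5 lower.

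The integrated stress response genes around Atf3 were mostly lower. Of 11, 8 were lower, 2 higher (Atf5 and Chac1) and 1, Ppp1r15a, did not pass, with a median of -0.89. With the length offset 6 were lower, and the calls of Atf4, at -0.76 ± 0.17, and Trib3, at -0.89 ± 0.18, were lost. Library totals alone gave 9 lower and 2 higher. Nupr1, a small stress-induced chromatin protein, was the lowest at -3.19 ± 0.33, and Atf5, a bZIP factor with a role in beta cell survival, the highest at 1.90 ± 0.16.

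For Dusp1, 8 of 9 other dual-specificity phosphatases of MAP kinases were tested. Dusp7, Dusp8 and Dusp16 were higher, none was lower and 5 did not pass (Dusp4, Dusp5, Dusp6, Dusp9 and Dusp10), with a median of 0.19. None was lower at an unadjusted p under 0.05 with edgeR, nor by DESeq2 or limma-voom with adjustment. Dusp7, a cytoplasmic ERK phosphatase, was the highest at 2.16 ± 0.29, and Dusp9 the lowest at -0.36 ± 0.88. DESeq2 called 5 higher and the fit with the length offset 7, and library totals alone gave 3 higher and 2 lower, with a median of -0.25. Of 7 MAP kinases, 4 were higher, Mapk11 was lower and 2 did not pass, with a median of 0.41. Mapk9, or JNK2, was at 1.69 ± 0.08 and Mapk11, or p38β, at -0.63 ± 0.19. The call of Mapk11 was lost without any 1 total RNA library. So was the higher call of Mapk3, at 0.41 ± 0.15, which was kept in only 6 of 14 alternatives. Library totals alone gave 3 higher and 3 lower, with a median of -0.02.

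Calls in the family of Btg2 went both ways too, as they did over all tested genes (28.9% higher, 33.6% lower). Of 11 Btg, Tob and CCR4-NOT genes, 4 were higher (Cnot6l, Tob2, Cnot3 and Cnot6), 5 lower (Btg3, Cnot8, Btg1, Tob1 and Cnot1) and 2 did not pass (Cnot2 and Cnot7), with a median of -0.20. Cnot6l, a catalytic deadenylase, was the highest at 2.06 ± 0.15, and Btg3, another antiproliferative protein, the lowest at -2.22 ± 0.32. The call of Cnot1, at -0.38 ± 0.14, was lost in 5 of 14 alternatives, among them leaving out any 1 total RNA library or IP library 3, and that of Tob1, at -0.80 ± 0.12, was lost with the length offset. Of the Ier relatives and partners, both listed genes were lower, the relative Ier5l at -1.75 ± 0.27 and the Ier3 interacting protein Ier3ip1, a membrane protein of the early secretory pathway, at -3.18 ± 0.16. Of 7 tested genes for proteins that bind AU-rich elements, 6 were higher and Tia1, a translational repressor, was lower at -0.98 ± 0.14, with a median of 0.77. Khsrp, a KH domain protein that promotes decay of AU-rich mRNAs, was the highest at 2.19 ± 0.08. Zfp36 and Zfp36l2 stand in that list and also among the other immediate early genes. With library totals alone, or with the length offset, 4 were higher and 1 lower.

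**Figure D5:**
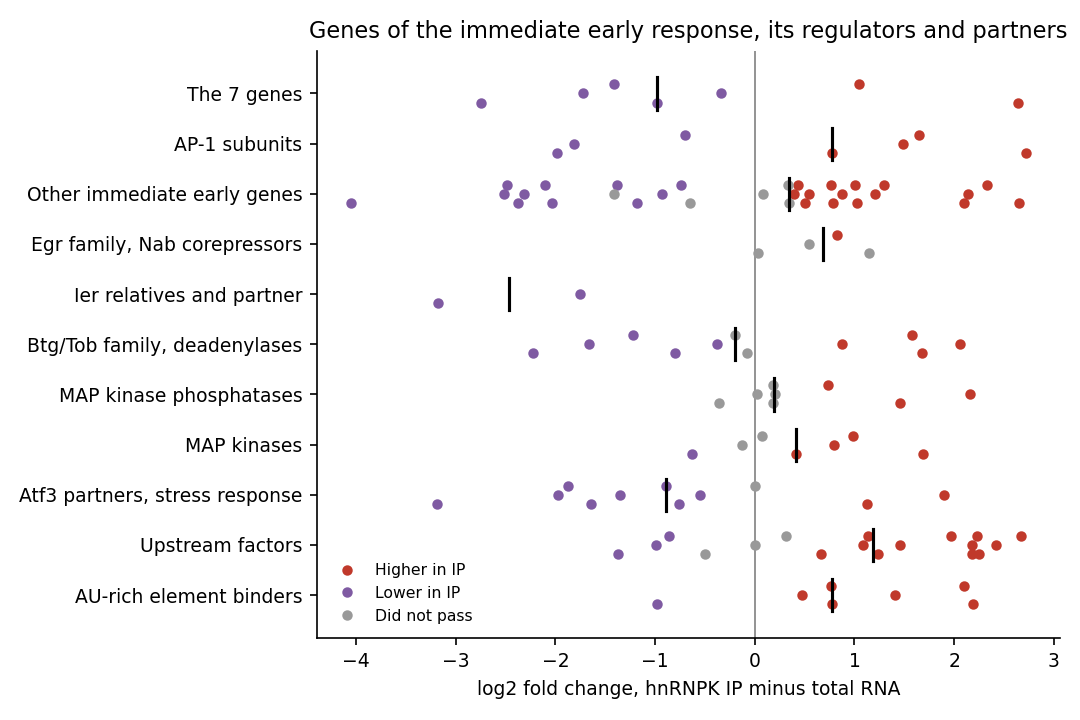
Log2 fold changes, hnRNPK IP minus total RNA, of the tested genes of each list other than the cell type markers, 1 point per gene (red called higher, purple called lower, grey neither) and a black line at each median, with the 7 immediate early response genes in the top row. Medians run from -2.47 for the Ier relative and the Ier3 partner to 1.19 for the upstream factors, against -0.07 over all tested genes.

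The libraries carried the markers of the labelled line. All 12 beta cell markers had reads in every library, with a summed level of 7890 to 10127 CPM in the IP and 31668 to 43916 CPM in total RNA, on the scale of library totals. The sum does not stand for each marker: 7 were called higher in the IP and 5 lower, with a median log2 fold change of 0.32. They ran from 1.93 ± 0.08 for Nkx2-2 to -3.28 ± 0.13 for the abundant Iapp. With library totals alone, 4 were higher and 5 lower. Markers of other endocrine cells summed to 104 to 149 CPM in the IP and 157 to 192 CPM in total RNA, nearly all of it Gcg. Exocrine and duct markers summed to 0.102 to 1.03 CPM in the IP and 0.512 to 0.628 CPM in total RNA, with Cpa1, Prss1 and Cftr at 0 in both groups. Stromal, endothelial and immune markers summed to 5.37 to 6.95 CPM in the IP and 3.38 to 4.84 CPM in total RNA, and of their 4 tested genes Col1a1 and Col3a1 were higher in the IP, at log2 fold changes of 2.10 ± 0.52 and 3.41 ± 0.72. Their part in the values of the 7 mRNAs was not tested.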

How the data were processed

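The authors deposited whole-number counts of reads per gene, 1 table per library, not normalized. Per the submitters' processing notes, reads were aligned to mm10 with TopHat2 and counted with featureCounts. The sources used here do not give their versions, the annotation release or the strand setting. Of 53379 gene identifiers, 53274 matched GENCODE M21 (GRCm38, the same build as mm10), which gave symbols, coordinates and transcripts. The 105 unmatched held at most 0.0237% of a library. Library totals were 38764925 to 52735957 counts. Among counts of 1 to 20, 58.6% to 68.7% were even, so counts divided by 2 were tried.

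Groups came from the sample titles. No 2 libraries of a group agreed within sampling noise (chi-square per degree of freedom 6.40 to 123). The test across genes was that of edgeR 4.0.16 in R 4.3.3 (TMM, filterByExpr with minimum count 10 and minimum total count 15, glmQLFit, glmQLFTest), with the group as its only term. Adjusted p-values are Benjamini-Hochberg over all 16929 tested genes, with a threshold of 0.05. SE is the absolute log2 fold change divided by the square root of F. CPM uses TMM factors, and member ratios add 0.5 counts. The 14 alternatives were library totals alone, DESeq2 size factors, DESeq2 1.42.0, limma-voom (limma 3.58.1), no filter, a replicate block, counts divided by 2, a length offset and leaving out each of the 6 libraries.

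The 7 genes and the gene lists were chosen with earlier results of these data known, and support nothing by their choice. By rule, the genes named are the 7, the highest and lowest tested gene of each list, the nearest gene in profile to each of the 7, and cell type markers. Other list genes were named after their values were seen, and not every listed gene is named.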

Additional observations from a re-analysis of the deposited data

How the results depend on the processing

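Egr1, Dusp1, Atf3, Ier5, Ier2 and Ier3 kept their direction and their call under all 14 alternatives. Btg2 kept its direction, but its log2 fold change was -0.30 with DESeq2 size factors (edgeR adjusted p 0.071), -0.30 with DESeq2 (adjusted p 0.0625), -0.30 with counts divided by 2 (edgeR adjusted p 0.0735) and -0.00082 with the length offset (edgeR adjusted p 0.996). Leaving out 1 library gave -0.50 to -0.23, and the cause was not tested. Library totals alone moved the median of all tested genes from -0.07 to -0.51, with 3447 called higher and 7278 lower (32.1% of calls higher) against 4892 and 5680 (46.3%) with TMM. On that scale Egr1 was at 2.20, Dusp1 at 0.62, Btg2 at -0.77 and Ier3 at -3.18.

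With the replicate number as a block, Btg2 was at -0.35 (edgeR adjusted p 0.0525), no other call among the 7 changed, and 4384 genes were higher and 5364 lower. The labels do not say that a number marks a shared culture, so the numbers are not taken to pair the libraries. Deviations of same-numbered libraries correlated at 0.000874, -0.0709 and 0.12 across genes. With 3 libraries per group and the wide spread of the IP, these correlations cannot decide on pairing. With a pseudocount of 5 counts, or without any 1 replicate number, no pair ratio changed direction. Depth limits Ier3 most, with 37 to 70 counts in an IP library.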
